A study of Mus musculus with 15 samples.

Results

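Cell cycle genes were measured in mouse left ventricle after a sham operation or after the operation that the labels call TAC. The series concerns hypertrophy of the pressure-loaded heart. The set comprised the cyclins, cyclin-dependent kinases with their partners and inhibitors, E2F factors, and genes of DNA replication. Probe sets were taken by gene symbol alone, without regard to their values. They had 1 symbol in the platform annotation that began with Ccn, a letter and a digit, with Cdk and a digit or an n, or with E2f and a digit, or that named Mcm2 to Mcm7, Cdc6, Cdc20, Cdc25, Cdc45, Top2a, Mki67, Pcna or Rb1. The rule found 74 of the 12422 probe sets that are no controls, and these stood for 57 genes. Of the genes, 41 had 1 probe set, 15 had 2 and 1 had 3.

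Each of 15 left ventricle samples was hybridised to 1 array. The groups were 3 female sham controls, 6 male sham controls, 3 females with TAC and 3 males with TAC, so that 9 sham and 6 TAC arrays were compared. The labels give neither strain, age nor time after the operation, do not spell out TAC, and do not say that each array is a separate animal. The p-values therefore measure only the spread between these samples.

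Progress through the cell cycle depends on cyclins that switch on their partner kinases in turn. D cyclins with Cdk4 or Cdk6 phosphorylate the retinoblastoma protein Rb1, which releases E2F factors to transcribe genes of DNA synthesis. E and A cyclins with Cdk2 carry cells through S phase, A and B cyclins with Cdk1 through mitosis, and the Cdkn1 and Cdkn2 proteins hold the kinases back. Most heart muscle cells of adult mammals have left the cell cycle, while fibroblasts, endothelial cells and leukocytes of the heart can divide. In whole ventricle, fewer cells of a type and less RNA per cell cannot be told apart.

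The deposited values are intensities in arbitrary array units, and array medians lay between 21.3 and 26.7. The tissue showed the markers of heart muscle: all 6 cardiomyocyte markers found among 7 listed were above 20 on all 15 arrays. Nppa, the gene of atrial natriuretic peptide, lay between 111 and 307 on the sham arrays and between 1045 and 2549 on the TAC arrays, so the labels and this load marker went together. The summed intensity of 6 fibroblast markers was 1124 to 1531 in sham and 1425 to 2238 in TAC hearts. The largest term was Dcn, with a mean of 835.1 in sham and 1206.5 in TAC hearts (limma adjusted p = 0.162). Col1a1, Col3a1 and Pdgfra were also higher with TAC, Col1a2 and Thy1 were lower, and none of the 6 was called. The sum of 7 macrophage and leukocyte markers was 304 to 353 in sham and 305 to 335 in TAC hearts. Of the macrophage and leukocyte markers, Cd14, Csf1r, Lyz2, Cd68 and Cd52 were above 20 on all 15 arrays. Cd14 was the largest term, at a mean of 150 in sham and 148 in TAC hearts. Ptprc and Adgre1, defining markers of leukocytes and macrophages, were above 20 on no array.

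An intensity of 20 was used as the limit below which values were not ordered. A probe set was counted as above it where at least 8 of the 15 arrays exceeded 20. By this rule 44 of the 74 probe sets were above 20 (59.5%), against 56.3% of all probe sets. Of the 74, 35 were above 20 on all 15 arrays, and 20 on none (27.0%, against 27.8% of all probe sets). At least 1 probe set was above 20 for 41 of the 57 genes, while 11 genes had no probe set above 20 on any array. The share above 20 was thus close to that of the whole array.

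Members linked to division lay on both sides of this limit. Ccna2, Ccnb2 and Cdc20 were above 20 on all 15 arrays, while Mki67 and Top2a were above it on none. Mki67, whose protein coats chromosomes of cycling cells, had 2 probe sets, and neither exceeded 20 on any array. The brighter one had a lowest, median and highest intensity of 5.97, 10.7 and 15.2 among sham arrays and of 5.56, 9.94 and 16.7 among TAC arrays. Top2a, the topoisomerase that untangles chromosomes before mitosis, reached at most 7.52 in sham and 11.5 in TAC hearts. Both genes stayed below the limit in both groups, so no change could be measured for them. Ccna1, Cdc6, Cdk8, Cdkn1b, E2f3, Mcm4, Mcm6, Rb1 and Ccnb1ip1 were also above 20 on none of the arrays. Cdkn1b is an inhibitor of cyclin-kinase complexes, Cdc6 loads the Mcm helicase onto origins, and Ccnb1ip1 is a ubiquitin ligase of meiosis rather than a cyclin. A value under 20 says that the probe set gave little signal, not that the transcript was absent.

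**Figure D1:**
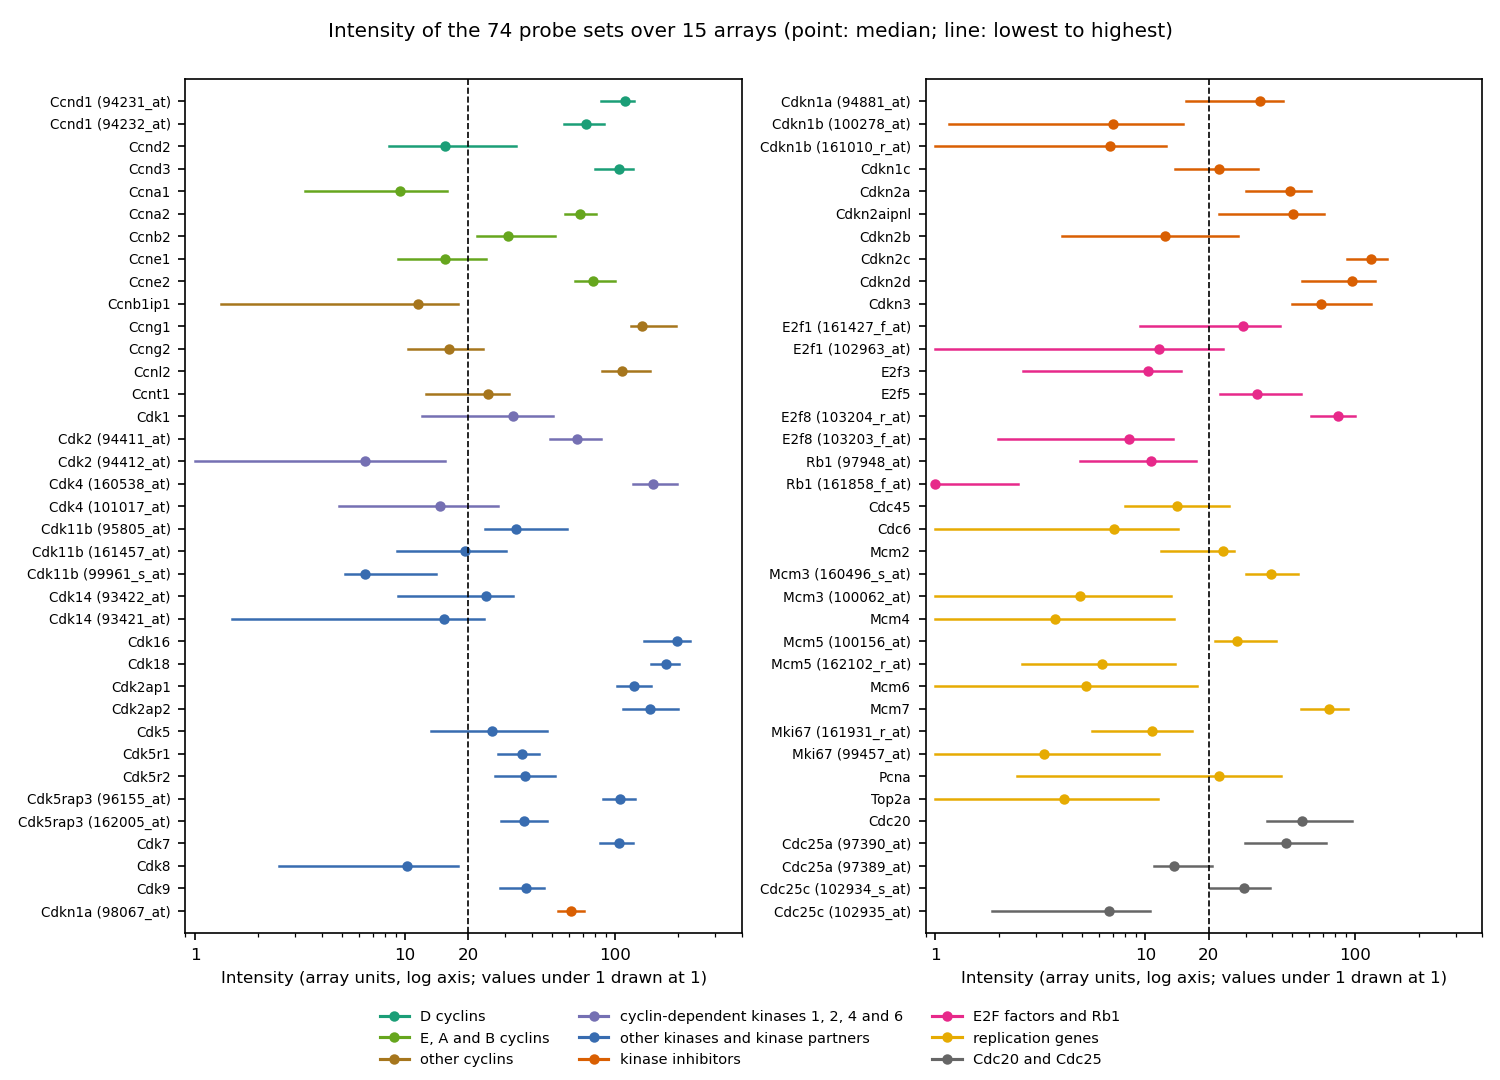
Intensity of each of the 74 probe sets over the 15 arrays, on a log axis in array units, with the point at the median, the line from the lowest to the highest value, colours for the gene groups and a dashed line at 20. The lines of 35 probe sets lie wholly to the right of 20 and those of 20 wholly to the left, and among the replication genes 8 of 14 lie wholly to the left.

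All sham were then compared with all TAC arrays, as the difference within each sex averaged over the sexes, so that the unequal share of females in the groups did not enter. Values were floored at 20 before log2 was taken. Of the 74 probe sets, 47 passed the filter on dim probe sets, for 42 genes. Of the 47, 44 were those above 20, and Ccnd2 and the dimmer probe sets of Cdk4 and Cdk11b passed although at most 7 arrays exceeded 20. Ccnd2 and that Cdk11b probe set passed through the TAC arrays alone, and that Cdk4 probe set through the sham arrays alone. No member was called by limma at an adjusted p under 0.05, where 0.322% of all 7453 tested probe sets were called, so a count of 0 among 47 is near the background. At an unadjusted p under 0.05 there were 2 of 47 (4.26%), against 7.51% of all tested probe sets. The 2 were Cdkn3 and an E2f1 probe set, both lower with TAC, a direction in which 4.66% of all tested probe sets had such a p, and 0 members were higher, against 2.86%. The intensities of the 9 sham and the 6 TAC arrays overlapped for each of the 47 members, where 0.416% of all tested probe sets had groups that did not overlap.

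The log2 changes of the 47 members ran from -0.38 to 0.27, with 14 higher and 33 lower with TAC. Their median was -0.06, beside -0.03 over all tested probe sets, and 70.2% were lower beside 58.2% of all. Over the 44 members whose sham and TAC means both passed the filter limit, 12 were higher and 32 lower. Of all probe sets restricted in the same way, 57.8% were lower. The balance of the 47 moved with the normalization. With each array centred on its median, 24 of 47 members were lower and the median was -0.0049, beside 0.02 over all probe sets. With quantile normalization 31 of 47 were lower and the median was -0.037, beside -0.0027 over all probe sets. The spread between arrays of a group was 0.21 on the log2 scale for the median member and 0.24 for the median of all tested probe sets. The 95% interval of the change lay within 1.5-fold in both directions for 43 of the 47 and within 2-fold for all 47. On the floored scale the intervals reached from 0.603-fold to 1.54-fold, and changes of dim genes are understated by the floor.

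**Figure D2:**
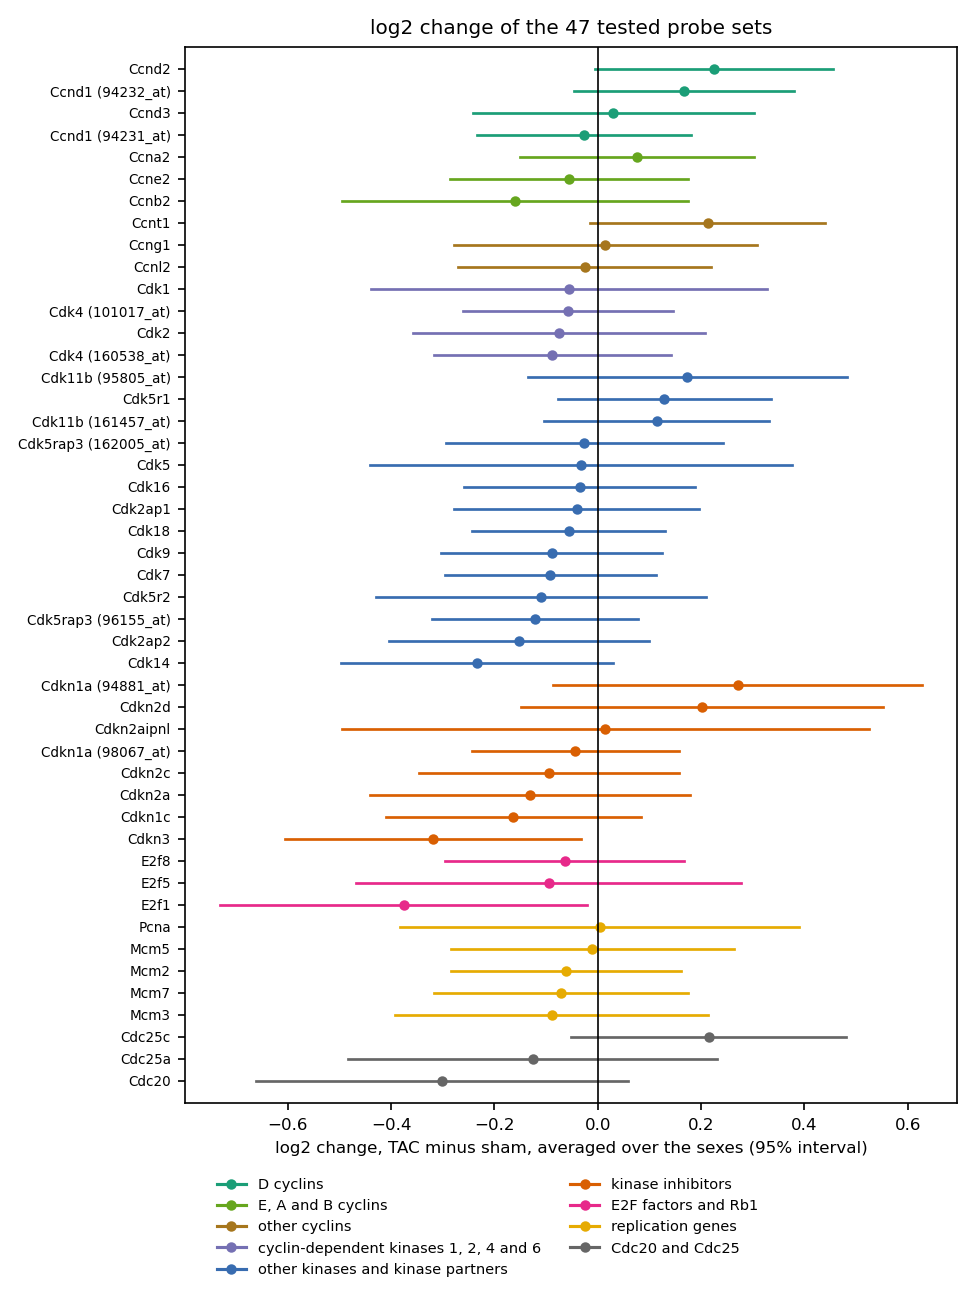
The log2 change with TAC, averaged over the sexes, of the 47 tested probe sets, with 95% intervals from limma and colours for the gene groups; genes with several tested probe sets carry the identifier. The points lie between -0.38 and 0.27, and the intervals of 2 probe sets, Cdkn3 and E2f1, do not reach 0, although neither passed the adjustment.

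The D cyclins, which respond to growth signals at the start of the cycle, were represented by 4 tested probe sets of 3 genes. Ccnd1 had a lowest, median and highest intensity of 85.4, 115 and 123 among sham arrays and of 102, 107 and 116 among TAC arrays. The TAC values lay inside the sham range. The log2 change was -0.03 ± 0.10 (SE), or 0.982-fold with a 95% interval of 0.851 to 1.13 (limma adjusted p = 0.971). The second Ccnd1 probe set had 57.1, 67.9 and 87.7 in sham and 70.6, 74.3 and 88.5 in TAC hearts, with a log2 change of 0.17 ± 0.10 (SE) and an adjusted p of 0.762. Within females this second probe set did not overlap between the groups, which 3.14% of all tested probe sets did in the same direction.

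Ccnd3 had 81.3, 105 and 113 among sham arrays and 79.8, 107 and 122 among TAC arrays. The groups covered the same range, and the log2 change was 0.03 ± 0.13 (SE, adjusted p = 0.976). Ccnd2 was dim, with 8.41, 12.4 and 21.8 in sham and 13.4, 17.9 and 33.8 in TAC hearts, and exceeded 20 on 1 of 9 sham and 3 of 6 TAC arrays. Its floored mean log2 was 4.34 in sham and 4.57 in TAC hearts, and the filter limit of 4.40 lay between them. In females the TAC arrays gave 33.8, 32.5 and 15.5 and the sham arrays 12.0, 13.6 and 21.8, so that 2 TAC hearts stood above all sham hearts and female TAC 3 did not. In males all 6 sham arrays were below 20, and 1 of 3 TAC arrays exceeded it, at 20.2. The averaged change of Ccnd2 on the floored scale was 0.22 ± 0.11 (SE, adjusted p = 0.677). Without female TAC 3 it was 0.35, still without a call (adjusted p = 0.141), and without female TAC 1 it was 0.16.

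Of the cyclins of S phase and mitosis, Ccna2, Ccnb2 and Ccne2 were above 20 on all arrays. Ccna2, which partners Cdk2 and Cdk1, had a lowest, median and highest intensity of 57.4, 68.1 and 80.3 in sham and of 59.2, 69.6 and 80.7 in TAC hearts. These ranges were nearly the same, with a log2 change of 0.08 ± 0.11 (SE, adjusted p = 0.914) and an interval of 0.901-fold to 1.23-fold. The mitotic cyclin Ccnb2 had 21.9, 33.8 and 51.8 in sham and 24.2, 29.9 and 32.8 in TAC hearts, a change of -0.16 ± 0.16 (SE, adjusted p = 0.875). Ccne2, a partner of Cdk2, had 71.1, 85.7 and 96.9 in sham and 64.7, 77.8 and 99.9 in TAC hearts, a change of -0.06 ± 0.11 (SE, adjusted p = 0.937). Ccne1 exceeded 20 on 1 sham and 1 TAC array and was not tested.

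The other cyclins serve DNA damage responses or transcription. Ccng1, a target of p53, averaged 144 ± 24.2 (SD, n = 9) in sham and 151 ± 34.1 (SD, n = 6) in TAC hearts, a change of 0.01 ± 0.14 (SE, limma adjusted p = 0.991). Ccnl2, a cyclin linked to splicing, averaged 111 ± 17.7 and 109.8 ± 10.04 (SD, same n), a change of -0.03 ± 0.12 (SE, adjusted p = 0.977). Ccnt1, which with Cdk9 forms the elongation factor P-TEFb, had 12.6, 23.8 and 26.6 in sham and 19.2, 28.7 and 31.4 in TAC hearts. Its lowest TAC value, from female TAC 1, lay within the sham range, and the other 5 TAC arrays were above all sham arrays. The change was 0.21 ± 0.11 (SE), or 1.16-fold with an interval of 0.990 to 1.36, and was not called (adjusted p = 0.696). Female TAC 1 had the lowest array median of the 15, and with quantile normalization the adjusted p of Ccnt1 was 0.432. Cdk9 itself averaged 39.4 ± 4.42 in sham and 36.2 ± 5.04 in TAC hearts (SD, same n), a change of -0.09 ± 0.10 (SE, adjusted p = 0.888).

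The kinases that drive the cycle had 4 tested probe sets, with averaged changes from -0.09 to -0.06 and limma adjusted p of 0.900 to 0.964. Cdk4, the partner of the D cyclins, had a lowest, median and highest intensity of 127, 156 and 196 in sham and of 122, 149.7 and 166 in TAC hearts, a change of -0.09 ± 0.11 (SE, adjusted p = 0.900) with an interval of 0.802-fold to 1.10-fold. Cdk2 had 49.0, 68.3 and 85.6 in sham and 51.1, 64.1 and 70.1 in TAC hearts, a change of -0.08 ± 0.13 (SE, adjusted p = 0.933). Cdk2 is covered by a second probe set that was above 20 on no array. On the brighter probe sets, the ranges of TAC hearts lay inside those of sham hearts for Cdk2 and nearly so for Cdk4. The dimmer Cdk4 probe set exceeded 20 on 4 of 9 sham and 1 of 6 TAC arrays and passed the filter through the sham arrays alone. Its change was -0.06 ± 0.10 (SE, limma adjusted p = 0.925). Cdk1, the mitotic kinase, had 20.9, 31.7 and 50.2 in sham and 12.0, 32.9 and 50.4 in TAC hearts. The lowest of these was female TAC 1, and the averaged change was -0.06 ± 0.18 (SE, adjusted p = 0.964). In females the change of Cdk1 was -0.41 ± 0.27 (SE) and in males 0.30 ± 0.24 (SE), and the difference of -0.71 ± 0.36 (SE, female minus male) was not called (adjusted p = 1.00). No probe set of Cdk6 was among the members.

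The other kinases and kinase partners had 14 tested probe sets, 3 higher and 11 lower with TAC, with changes from -0.23 to 0.17 and adjusted p of 0.724 to 0.982. Cdk14, a kinase of the Wnt pathway and the cell cycle, exceeded 20 on 9 of 9 sham and 3 of 6 TAC arrays. Its intensities were 20.5, 25.6 and 32.5 in sham and 9.25, 19.3 and 26.7 in TAC hearts, a change of -0.23 ± 0.12 (SE, adjusted p = 0.724). With the floor at the 10th percentile of all values its change was -0.48, without a call, so the floor set the size of the value. Cdk16, a kinase of membrane traffic that also acts in sperm formation, averaged 194 ± 27.4 (SD, n = 9) in sham and 195 ± 20.8 (SD, n = 6) in TAC hearts, a change of -0.04 ± 0.11 (SE, limma adjusted p = 0.961). Cdk5r1, an activator of the neuronal kinase Cdk5, had a change of 0.13 ± 0.10 (SE, adjusted p = 0.818). Cdk5rap3, which binds Cdk5 regulators and acts in the UFM1 modification pathway, had a change of -0.12 ± 0.09 (SE, adjusted p = 0.828). Cdk7, the kinase that activates other cyclin-dependent kinases, had a change of -0.09 ± 0.10 (SE, adjusted p = 0.881). The Cdk11b probe sets gave 0.17 ± 0.15 and 0.11 ± 0.10 (SE), and a further one was above 20 on no array. The second value came from the dimmer tested probe set, with a floored mean log2 of 4.39 in sham and 4.50 in TAC hearts. It passed the filter limit of 4.40 through the TAC arrays alone, so it is no independent support for the first.

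Symbols beginning with Cdkn covered 8 tested probe sets, 3 higher and 5 lower. Cdkn1a, the p53-induced inhibitor, had intensities of 55.8, 61.8 and 67.9 in sham and of 53.5, 59.1 and 70.8 in TAC hearts, a change of -0.04 ± 0.09 (SE, adjusted p = 0.945). A second Cdkn1a probe set was dimmer, with 15.7, 30.9 and 45.2 in sham and 32.2, 39.6 and 42.5 in TAC hearts. All 6 TAC values of this probe set were above the sham median but inside the sham range, and its change was 0.27 ± 0.17 (SE, adjusted p = 0.775). Cdkn1c, an imprinted inhibitor, exceeded 20 on 8 of 9 sham and 2 of 6 TAC arrays, with 19.6, 23.2 and 34.4 in sham and 13.8, 19.2 and 29.6 in TAC hearts. In males the 3 TAC values of 19.7, 13.8 and 18.6 were under 20, as was 1 of 6 sham values. The change of Cdkn1c was -0.16 ± 0.12 (SE, adjusted p = 0.810).

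Of the inhibitors that bind Cdk4 and Cdk6, Cdkn2c averaged 118 ± 16.4 (SD, n = 9) in sham and 112 ± 15.6 (SD, n = 6) in TAC hearts, a change of -0.09 ± 0.12 (SE, limma adjusted p = 0.904). Cdkn2d averaged 91.2 ± 21.0 and 104 ± 16.8 (SD, same n), a change of 0.20 ± 0.17 (SE, adjusted p = 0.839). Cdkn2a, a locus that encodes both an inhibitor of these kinases and the p53 activator Arf, averaged 50.05 ± 6.44 and 46.4 ± 10.8 (SD, same n), a change of -0.13 ± 0.15 (SE, adjusted p = 0.884). The differences of the means were smaller than the spread within a group for all 3. Cdkn2b exceeded 20 on 1 sham array and was not tested. Cdkn2aipnl, a relative of a Cdkn2a-binding protein and no kinase inhibitor, had a change of 0.01 ± 0.24 (SE, adjusted p = 0.994) and the widest interval of the 47, 0.709-fold to 1.44-fold.

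Cdkn3, a phosphatase that acts on Cdk2, had the smallest p of the members. It had a lowest, median and highest intensity of 49.99, 79.0 and 119 in sham and of 53.0, 63.5 and 68.7 in TAC hearts. In males the TAC arrays gave 63.3, 55.9 and 68.7, below all 6 sham arrays, of which the lowest was 74.3 and the highest 119. In females the TAC values of 63.7, 53.0 and 63.8 lay among the sham values of 86.8, 49.99 and 66.9. The averaged change was -0.32 ± 0.14 (SE), or 0.802-fold with an interval of 0.657 to 0.977, and did not pass the adjustment in limma (adjusted p = 0.585). The change was -0.50 ± 0.18 (SE, adjusted p = 0.605) in males and -0.14 ± 0.20 (SE, adjusted p = 1.00) in females. Groups of males that did not overlap, with TAC below sham, were found for 1.54% of all tested probe sets and for 1 of the 47 members.

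**Figure D3:**
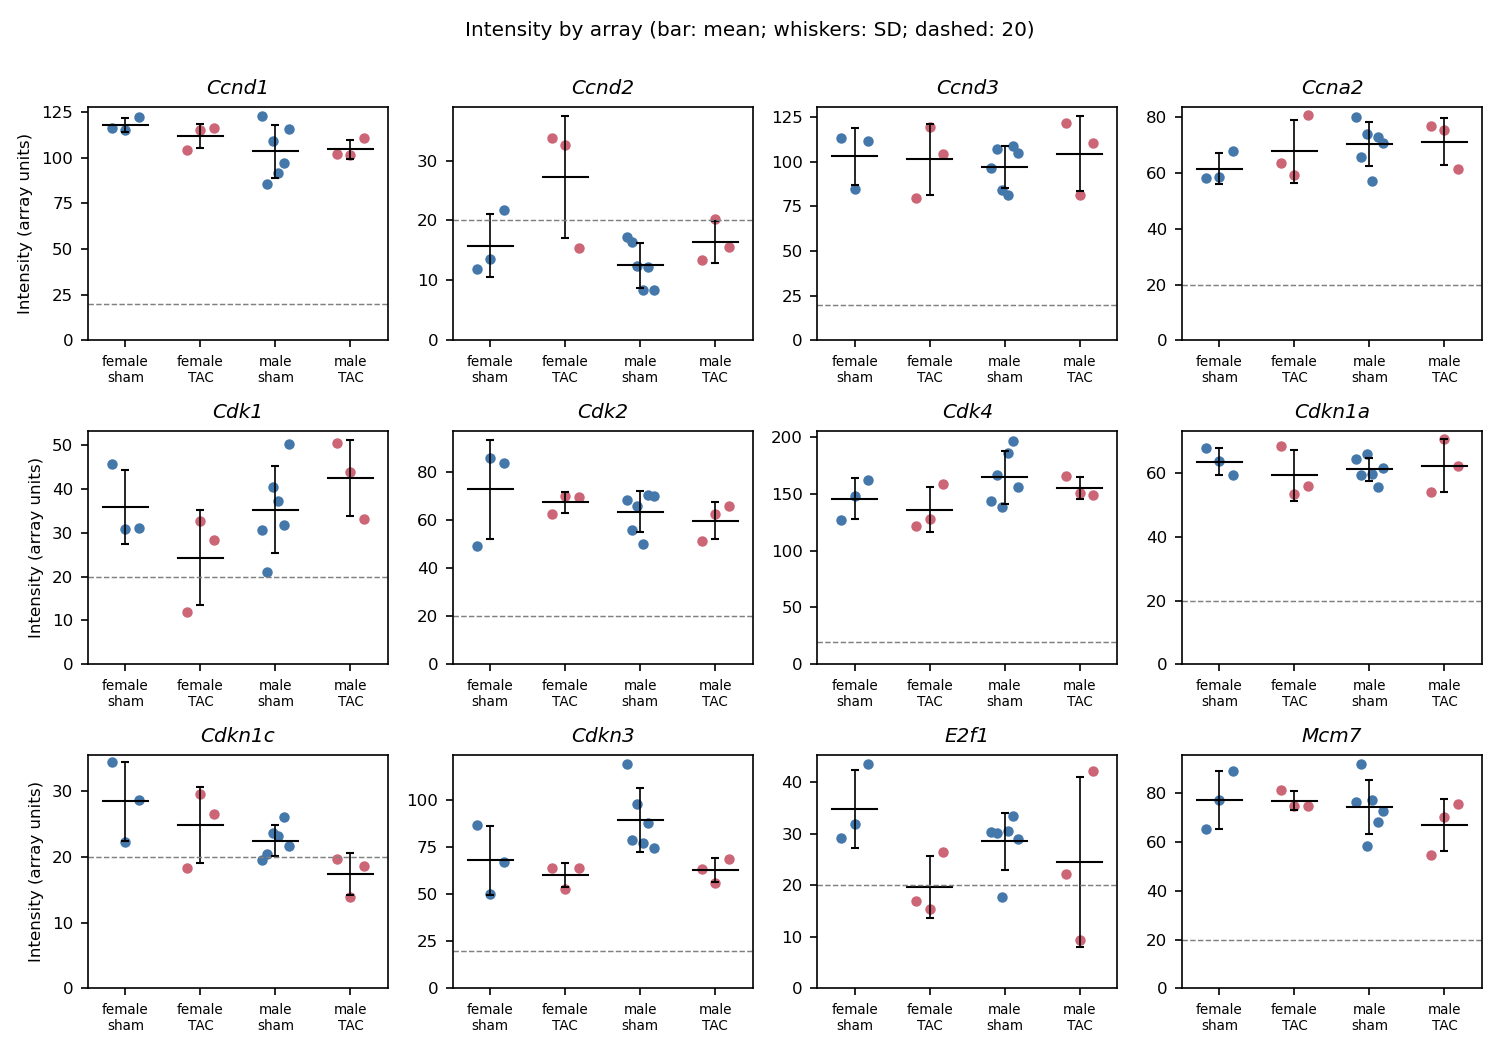
Intensity by array in array units, on linear axes from 0, of 12 named genes in female and male sham (blue) and TAC (red) hearts, each by its brighter probe set; horizontal bars are means, whiskers are SD and the dashed line is 20. The sham and TAC points overlap in every panel when the sexes are pooled, while the 3 male TAC points of Cdkn3 lie below all male sham points and the 3 female TAC points of E2f1 below all female sham points.

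E2f1, E2f5 and E2f8 had a tested probe set, none was called, and Rb1, the protein that restrains E2F factors, was above 20 on no array. E2f1, an activating factor, gave 17.6, 30.4 and 43.5 in sham and 9.42, 19.5 and 42.1 in TAC hearts. The value of 42.1 came from male TAC 6 and lay near the top of the sham range. In females the TAC arrays gave 16.9, 15.4 and 26.5 and the sham arrays 29.2, 31.8 and 43.5, without overlap. The averaged change was -0.38 ± 0.17 (SE), or 0.771-fold with an interval of 0.603 to 0.986, and did not pass the adjustment (limma adjusted p = 0.611). Without male TAC 6 it was -0.54 (adjusted p = 0.161), and without male TAC 5 it was -0.27. With the floor at the 10th percentile it was -0.64, and E2f1 was called in none of these runs.

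The identifier of this E2f1 probe set ends in a suffix for probes shared within a gene family, so other transcripts may add to it. The tested probe sets of Cdc25c and Mcm3 (s_at) and of E2f8 (r_at) also carry a suffix. Whether other transcripts add to those was not tested. The other E2f1 probe set exceeded 20 on no sham and 2 of 6 TAC arrays and was not tested, and most of its values lay under the limit and were not ordered. E2f5, a repressing factor, averaged 38.9 ± 10.9 (SD, n = 9) in sham and 34.1 ± 9.72 (SD, n = 6) in TAC hearts, a change of -0.10 ± 0.18 (SE, limma adjusted p = 0.936). The change of E2f5 was 0.16 ± 0.27 in females and -0.35 ± 0.23 in males (SE), and without male TAC 4 the averaged change was 0.05. E2f8, a repressor without a partner protein, averaged 82.7 ± 10.7 and 80.9 ± 12.0 (SD, same n) on the brighter of 2 probe sets, a change of -0.06 ± 0.11 (SE, adjusted p = 0.929). The dimmer E2f8 probe set averaged 8.15 in sham and 7.95 in TAC hearts and was above 20 on no array. In females the brighter E2f8 probe set gave 65.6, 77.6 and 78.2 with TAC and 93.8, 84.3 and 90.4 with sham, without overlap. In males its change was 0.15 ± 0.14 (SE). Groups of females with TAC below sham and no overlap were found for 5.74% of all tested probe sets and for 2 of the 47 members, E2f1 and E2f8.

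The replication genes had 14 probe sets, of which 5 were above 20. E2F factors bind a short sequence in the promoters of many such genes. RefSeq promoter windows of 300 bases on GRCm38.p6, from 250 before to 50 after each start, were matched to 46 of the 57 genes, 54 windows in all. The words TTTCCCGC, TTTCGCGC, TTTGCCGC and TTTGGCGC were searched on both strands, and they can overlap each other. They stood in 10 of the 54 windows (18.5%) and in 2.26% of all 32851 windows. The CCAAT box, searched as CCAAT on both strands, stood in 64.8% and 37.4%, and the cell cycle element TTTGAA in 22.2% and 17.9%. Stretches from 6 genes are shown because their probe sets fall on both sides of the limit although all carry the same kind of word, which is in capitals. Mcm3, Mcm5, Mcm7 and Cdk1 had a probe set above 20, and Mcm6 and Cdc6 had none on any array.
Mcm3, chr1:20820263-20820323, minus strand: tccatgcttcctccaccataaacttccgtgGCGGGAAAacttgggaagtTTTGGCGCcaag
Mcm5, chr8:75109326-75109393, plus strand: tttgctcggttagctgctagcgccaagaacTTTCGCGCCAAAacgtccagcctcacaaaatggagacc
Mcm7, chr5:138172011-138172078, minus strand: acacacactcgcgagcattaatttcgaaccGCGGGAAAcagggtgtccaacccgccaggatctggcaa
Cdk1, chr10:69353006-69353073, minus strand: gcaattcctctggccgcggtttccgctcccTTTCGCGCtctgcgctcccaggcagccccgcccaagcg
Mcm6, chr1:128359778-128359845, minus strand: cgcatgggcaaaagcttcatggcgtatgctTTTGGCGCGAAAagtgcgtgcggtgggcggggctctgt
Cdc6, chr11:98907983-98908050, plus strand: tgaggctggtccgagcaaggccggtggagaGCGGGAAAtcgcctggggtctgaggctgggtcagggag

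In the capitals of Mcm5 and Mcm6 a pair of words on opposite strands overlap. A match describes the letters in the window and does not show that a factor is bound. Among windows of genes with a probe set above 20 the share with such a word was 17.5%, and among those without it was 21.4%.

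Mcm2 to Mcm7 form the ring-shaped helicase that unwinds DNA at replication forks. Mcm7 had a lowest, median and highest intensity of 58.4, 76.5 and 92.1 in sham and of 54.8, 74.8 and 81.4 in TAC hearts, a change of -0.07 ± 0.12 (SE, adjusted p = 0.925) and an interval of 0.803-fold to 1.13-fold. Mcm3 had 32.8, 40.3 and 51.3 in sham and 30.2, 39.2 and 53.1 in TAC hearts, a change of -0.09 ± 0.14 (SE, adjusted p = 0.924). Mcm2 lay at the limit, with 11.9, 23.3 and 26.5 in sham and 12.6, 21.8 and 26.0 in TAC hearts. The groups covered the same range for each of these helicase genes. The tested Mcm5 probe set had a change of -0.01 ± 0.13 (SE, adjusted p = 0.992). Further probe sets of Mcm3 and Mcm5, and those of Mcm4 and Mcm6, were above 20 on no array, so 4 of the 6 helicase subunits had a probe set that was tested. Pcna, the sliding clamp of DNA polymerase, varied within groups, with 2.44, 22.5 and 39.5 in sham and 9.13, 24.7 and 44.1 in TAC hearts. It exceeded 20 on 6 of 9 sham and 4 of 6 TAC arrays, and its change was 0.00 ± 0.18 (SE, adjusted p = 0.998). Cdc45, a helicase cofactor, exceeded 20 on 1 sham and 1 TAC array and was not tested.

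Of the regulators of mitosis, Cdc20, which activates the anaphase-promoting complex, had 39.9, 56.5 and 96.0 in sham and 38.0, 47.4 and 58.3 in TAC hearts. Its change was -0.30 ± 0.17 (SE), or 0.811-fold with an interval of 0.632 to 1.04 (adjusted p = 0.743). The phosphatase Cdc25a, which activates Cdk2, had a change of -0.13 ± 0.17 (SE, adjusted p = 0.911), and Cdc25c, which activates Cdk1, one of 0.21 ± 0.13 (SE, adjusted p = 0.755). Each of the Cdc25 genes had a second probe set that was not tested, above 20 on 1 array for Cdc25a and on none for Cdc25c.

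The effect was also taken within each sex. In females limma called no member, where 0.0805% of all tested probe sets were called, and in males none, where 0.134% were. At an unadjusted p under 0.05 there were 3 of 47 members in each sex (6.38%), against 4.59% of all tested probe sets in females and 6.2% in males. In females these were Ccnd2, Cdc25c and E2f1, with log2 changes of 0.44 ± 0.16, 0.42 ± 0.19 and -0.64 ± 0.25 (SE), and of all tested probe sets 1.61% were higher and 2.98% lower at that threshold. Ccnd2 passed the filter through the TAC arrays alone, so its place among the 3 is no independent count. Over the 44 members whose sham and TAC means both passed, a restriction chosen after seeing the data, 2 had such a p in females (4.55%), against 4.52% of all probe sets restricted in the same way. In males they were Cdkn3, Ccnt1 and Cdk9, with -0.50 ± 0.18, 0.36 ± 0.14 and -0.30 ± 0.13 (SE), where 2.98% of all tested probe sets were higher and 3.22% lower. The male groups of Ccnt1 did not overlap, with TAC above sham, as was so for 1.62% of all tested probe sets. No gene was in both lists. The effect in females minus that in males was tested directly, and no member was called by limma or had an unadjusted p under 0.05, where 0% and 2.56% of all tested probe sets did (1.1% higher and 1.46% lower). The changes had the same sign in both sexes for 29 of 47 members (61.7%), beside 58.1% of all tested probe sets. Across the 47 probe sets, which share arrays and are not independent, the Pearson correlation of female with male changes was 0.05 and the Spearman correlation 0.08.

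**Figure D4:**
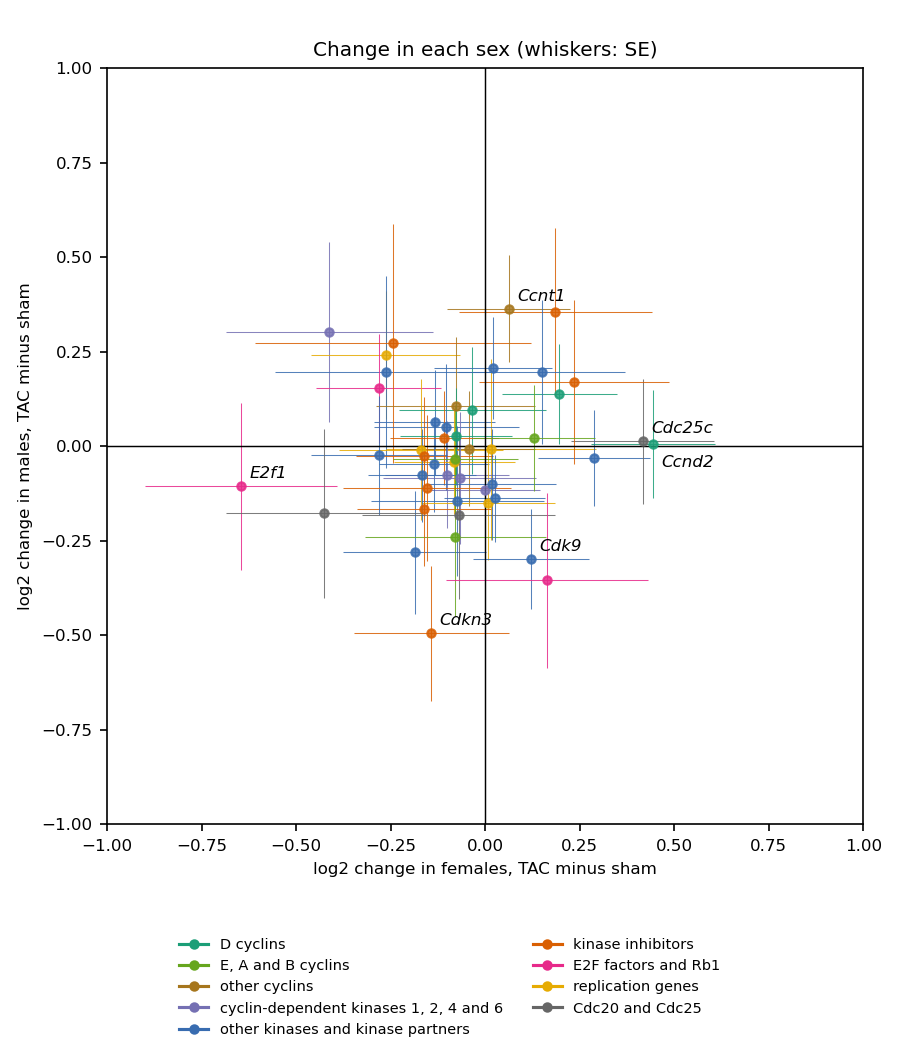
The log2 change with TAC in males (vertical axis) against that in females (horizontal axis) for the 47 tested probe sets, with whiskers of 1 SE and colours for the gene groups; the 6 probe sets with an unadjusted p under 0.05 in either sex carry names. The median of the points was -0.08 in females and -0.02 in males, beside -0.04 and -0.01 over all tested probe sets. The Pearson r was 0.05.

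Other genes of the cell cycle and DNA synthesis were taken from a list of 79, of which 65 were on the array and 29 were tested. No gene of the list was called in limma, in either direction, where 0.322% of all tested probe sets were called. None had an unadjusted p under 0.05, against 7.51% of all tested probe sets. With TAC 6 were higher and 23 lower (79.3% lower, beside 58.2% of all tested probe sets). With each array centred on its median, 17 of 28 were lower, and with quantile normalization 20 of 28. Without either step their median change was -0.06, beside -0.03 over all tested probe sets. The smallest p values belonged to Pola2, a subunit of the polymerase that starts new strands, with -0.20 ± 0.11, and Rrm2, a subunit of ribonucleotide reductase, with -0.29 ± 0.18 (SE). Orc4, of the origin recognition complex, followed with -0.15 ± 0.10, and Stmn1, a microtubule regulator, with -0.34 ± 0.24 (SE, limma adjusted p = 0.743 to 0.807 for the 4). Of the 65 genes, each by its brightest probe set, 26 were above 20 on no array (40%), against 27.8% of all probe sets. These included the spindle checkpoint genes Bub1, Ttk and Mad2l1 and the mitotic kinesin Kif11. Another 26 (40%, against 56.3% of all probe sets) were above 20 on at least 8 of the 15 arrays. Among them were the mitotic kinases Plk1, Aurka and Aurkb, the centromere histone Cenpa and the transcription factors Foxm1 and Mybl2. The shares of all probe sets include the dimmer ones of a gene, while the list counts genes by the brightest, so the units differ.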

How the data were processed

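The authors deposited linear intensities of probe sets in an arbitrary unit, with no value below 0 and 8722 exact zeros. For their software, background correction and scaling, the sources used here name nothing. Symbols came from the platform annotation, and all 74 members kept them after an update by Entrez number. The members, gene lists and tests were chosen with earlier results of these data known.

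The 66 control probe sets were left out. Values were floored at 20, the higher of 20 and the pooled 30th percentile (11.9), then logged to base 2. Of 12422 probe sets, the brightest 60% by mean, 7453, were tested with limma 3.58.1 (lmFit, eBayes) in R 4.3.3. One model held a mean for each of the 4 groups. Benjamini-Hochberg adjustment ran over all 7453, with calls at 0.05. The depth of arrays is set by their number, and the precision is given by standard errors and 95% intervals.

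Named genes were D cyclins, Cdk1, Cdk2 and Cdk4, the Cdkn genes, Rb1, Pcna, Top2a and Mki67, and in each gene group the 3 of smallest p and the brightest; others were named after their values were seen. Where a gene had several probe sets, the brighter stood for it. Titles number the arrays. Same-numbered sham and TAC arrays deviated from their group means with correlations of 0.117 to 0.270 in females and -0.0828 to 0.0641 in males. These passed a limit of 0.1 in females and not in males. Arrays of different numbers were not compared and the labels name no pairs, so these values do not show whether hearts were paired. Alternatives changed the normalization, floor, filter, eBayes setting, model, block, probe sets per gene and arrays. Correlations between arrays were 0.917 to 0.969, so none was deposited in duplicate.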

Additional observations from a re-analysis of the deposited data

Results flagged for a closer look

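Among 32 named probe sets above 20, the 6 male sham hearts held 1 array far from the other 5 for 2 genes, and chance flags about 1 in 20 such groups. For E2f1, male sham 6 had an intensity of 17.6, while the other 5 lay between 29.0 and 33.5. For Cdc20, male sham 4 had 96.0, while the others lay between 39.9 and 57.3. Neither gene was called, and neither was without the array in question.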

How the results depend on the processing

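No member was called in any of the 4 comparisons under any alternative: 14 for the averaged effect, 12 for females, 11 for males, 10 for their difference, and 15 runs without 1 array each, where the count was 0 to 0. The lowest adjusted p of a member in those runs was 0.141 for the averaged effect and 0.0973 in females. Both belonged to Ccnd2 in the run without female TAC 3, the female TAC heart that did not stand above all sham hearts. Ccnd2 passed the filter through the TAC arrays alone, so these values are no independent evidence of a change. The members with an unadjusted p under 0.05 in the averaged effect numbered 0 to 6 without single arrays. There were 6 without female sham 2 (12.8%, against 7.46% of all tested probe sets). Without male TAC 5 there were 0, against 5.92% of all tested probe sets. Blocking on the replicate number, in females and males alike, no member was called in any comparison (0 calls), and blocking in females alone, added after seeing the data, there were 0 as well; an adjusted p under 0.10, also added, gave 0. The pooled comparison of 6 TAC with 9 sham arrays without a term for sex gave 0 calls among the members. Of all 7453 tested probe sets 33 were called there. In the averaged effect 8 of 7453 were called with the replicate block and 45 with quantile normalization. Counts of 0 among the members are thus near the background. The other cell cycle genes had 0 calls under all alternatives run, which is near it too. The number of member probe sets above the limit was 44 at 20 and 25 at 40. Of 33 named genes tested, 20 kept the sign of their change in every run and 13, with changes of up to 0.13 in size, did not, and none was called. A dim probe set near the floor can hide changes, and the 27 members that were not tested give no evidence either way.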
